A study of Homo sapiens with 47 samples.

Results

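Small Cajal body-specific RNAs (scaRNAs) are guide RNAs that direct the chemical modification of spliceosomal small nuclear RNAs (snRNAs). The 10 scaRNA genes described here, SCARNA2, SCARNA5, SCARNA6, SCARNA7, SCARNA9, SCARNA10, SCARNA12, SCARNA13, SCARNA16 and SCARNA17, were taken by symbol from 58395 counted genes. HEK293T cells, a human embryonic kidney line, were compared with a HEK293T line carrying mutant EAF1, by RNA-seq of total RNA depleted of ribosomal RNA, with 3 libraries each. The mutant line came from CRISPR knock-in and is 1 clone in which both EAF1 alleles have residues of the MED26-binding site changed to alanine. The comparison asks how scaRNA levels differ when the site through which EAF1, a partner of the ELL elongation factors, binds MED26 of the Mediator complex is altered. Counts summed to 59137210, 52541541 and 55637032 per wild-type library and to 57198018, 53369621 and 66611451 per EAF1-mutant library. The study's methods speak of biological replicates for its experiments in general, while the labels do not say whether the libraries of a group came from separate cultures. The p-values measure the spread between these libraries, and a trait of the clone cannot be told apart from an effect of the mutation.

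Cajal bodies are nuclear bodies in which snRNAs are modified and assembled into snRNPs. Guides with box C and box D pair with a target and place a methyl group on a ribose, guides with box H and box ACA convert a uridine to pseudouridine, and mixed guides carry both kinds of domain. Most human scaRNAs are cut out of introns of a host gene, whereas a few have their own promoter, and the protein WRAP53 carries them to the Cajal body.

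The ends of the guides were searched for the box motifs. Capitals mark TGATGA (box C), CTGA (box D), or the ACA that stands 3 bases from the end of an H/ACA RNA, and only the strand of the RNA was searched. TGATGA lay in the first 15 bases of SCARNA5, SCARNA6, SCARNA7, SCARNA10 and SCARNA12, and in 23.1% of 991 annotated snoRNA and scaRNA models. CTGA lay in the last 15 bases of 7 members, against 43.4% of those models, and ACA at the stated place in SCARNA13 and SCARNA16, against 30.8%. The ends do not separate the box C/D guide SCARNA7 from the 4 mixed guides, which gave the same result, and SCARNA2, SCARNA9 and SCARNA17 had no TGATGA in their first 15 bases. The first and last 20 bases of the 4 mixed guides, of the box C/D guide SCARNA7, and the last 20 of both H/ACA guides are shown. In SCARNA12 both box motifs overlap in the first bases. Sequences are those of GRCh38, 5′ to 3′.
SCARNA10 first bases: gccacaTGATGAtatcaagg
SCARNA10 last bases: tctttggtaatCTGAtggct
SCARNA12 first bases: caggCTGATGAgactaaggc
SCARNA12 last bases: gcgcaaccttggatCTGAca
SCARNA5 first bases: ggtcgaTGATGAttggtaaa
SCARNA5 last bases: caagttttcaatCTGAgacc
SCARNA6 first bases: ggtcaaTGATGAatggtaaa
SCARNA6 last bases: gccttgttcaagCTGAgacc
SCARNA7 first bases: tggaaaTGATGAaatagaga
SCARNA7 last bases: ggtcctgtgatCTGAtccaa
SCARNA13 last bases: cactaagtactgccACAagt
SCARNA16 last bases: gtatgatactgcaaACAgga

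SCARNA9 is a tandem guide for U2 snRNA, and the annotation also holds each of its box C/D domains as a gene of its own. These 2 stretches are shown because both were counted separately. Each has TGATGA after its first 6 bases and CTGA near its end, as the capitals show.
SCARNA9 first domain, chr11:93721542-93721621: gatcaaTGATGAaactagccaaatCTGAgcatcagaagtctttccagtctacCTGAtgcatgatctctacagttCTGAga
SCARNA9 second domain, chr11:93721797-93721866: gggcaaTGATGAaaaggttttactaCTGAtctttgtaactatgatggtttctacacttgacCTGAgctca

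SCARNA17 is known as a box C/D guide, yet its counted model (chr18:49814133-49814276, plus strand) covers 144 bases and holds no TGATGA. RefSeq gives this gene 421 bases, and the counted model shares 34.2% of them. The last 60 bases of the RefSeq model, outside the counted one, are shown for their CTGA motifs. If the authors counted on the same 144 bases, which was not tested, the counts of SCARNA17 describe an inner stretch of the RNA only.
SCARNA17, RefSeq model, last bases: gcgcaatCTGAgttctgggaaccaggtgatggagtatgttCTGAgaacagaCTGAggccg

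The labels were checked on genes outside the guides. EAF1 had 57.5, 58.4 and 56.5 CPM (counts scaled per library with edgeR's TMM factors) in the wild-type libraries and 19.7, 17.9 and 18.8 in the EAF1-mutant ones. Its log2 fold change was -1.61 (standard error 0.05 and edgeR-adjusted p = 2.48e-18), although a point mutation by itself leaves the RNA countable. The paper reports little change in the level of EAF1 protein in the mutant line by western blot. The cause of the lower EAF1 RNA was not tested. Of 6 genes usually found in HEK293T cells, 5 were over 1 CPM in every library, led by VIM, and PAX2 had a mean of 0.679 CPM in wild-type cells. Their summed level was 542, 550 and 571 CPM in wild-type libraries and 391, 390 and 400 CPM in EAF1-mutant libraries. VIM and NEFM were lower in EAF1-mutant cells, with log2 fold changes of -0.93 and -1.31, and KRT8 and KRT18 were higher, with 1.38 and 0.82. Among 7 markers of other cells, TFF1 had no counts, COL1A1 was the most abundant with 2.85 CPM in wild-type and 4.16 in EAF1-mutant cells, and their summed level was 2.37, 2.87 and 3.51 CPM in wild-type libraries and 4.10, 4.41 and 4.55 CPM in EAF1-mutant libraries, without overlap. COL1A1 was called higher, with a log2 fold change of 0.54. The part of these differences between the lines in the scaRNA results was not tested.

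All 10 scaRNAs passed edgeR's filter on low counts, as did 28025 genes in all. Their counts per library ran from 237 for SCARNA16 to 11961 for SCARNA2, so that counting error alone was at most 6.50% for the former and 1.14% for the latter. Per kilobase of model, the order in wild-type cells was SCARNA2 (433 CPM per kb), SCARNA10 (265), SCARNA12 (253), SCARNA7 (204), SCARNA13 (111), SCARNA9 (90.2), SCARNA17 (57.3), SCARNA5 (56.7), SCARNA6 (30.6) and SCARNA16 (26.1). Within this order the libraries of SCARNA10 and SCARNA12, of SCARNA17 and SCARNA5, and of SCARNA6 and SCARNA16 overlapped. In EAF1-mutant cells SCARNA10 stood first, at 420 CPM per kb, above SCARNA2 at 393, and the libraries of these RNAs did not overlap. The rest kept their order, with an overlap only between SCARNA17 and SCARNA5.

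**Figure D1:**
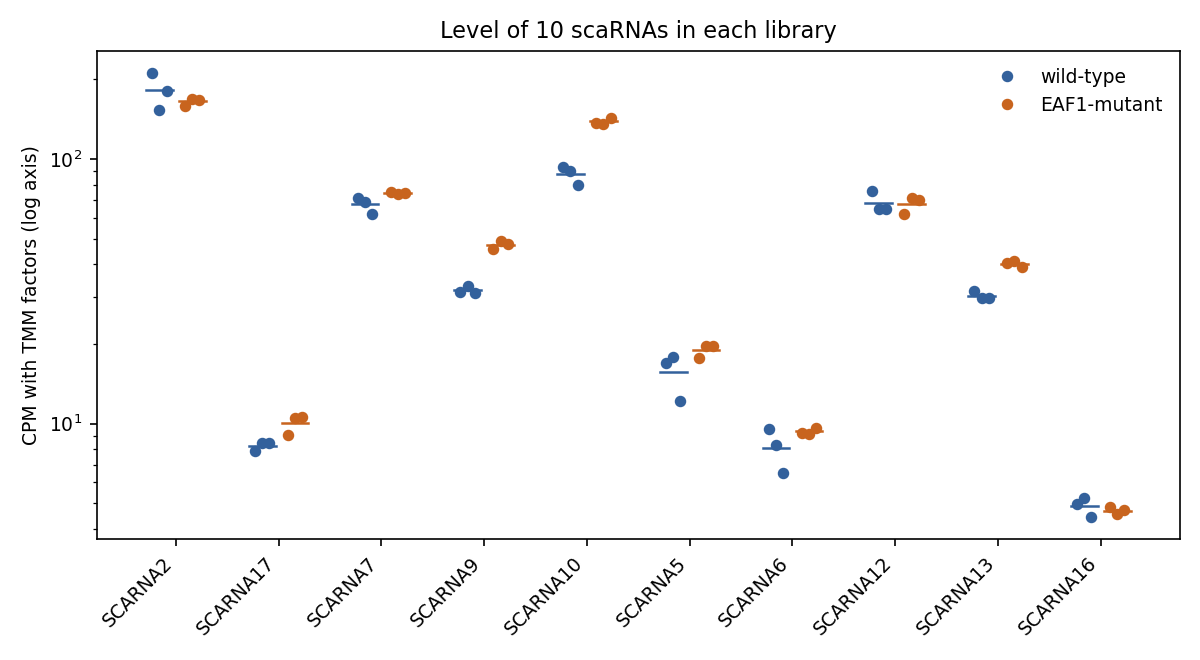
Level of each scaRNA in 3 wild-type and 3 EAF1-mutant libraries, in CPM with TMM factors on a log axis. Points are libraries and lines are group means. SCARNA9, SCARNA10 and SCARNA13 show EAF1-mutant libraries well above all wild-type ones, whereas those of SCARNA2, SCARNA12 and SCARNA16 overlap.

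SCARNA9 and SCARNA10 rose in EAF1-mutant cells, and no scaRNA of the 10 was called lower. Calls needed an adjusted p under 0.01 together with a log2 fold change beyond 0.5 or -0.5, by edgeR's quasi-likelihood test with Benjamini-Hochberg adjustment over all 28025 genes. Thus 2 of 10 were called higher, where 11.0% of all tested genes were, and 0 of 10 lower, where 9.36% were. At an unadjusted p under 0.05, 7 were higher, beside 28.5% of all tested genes, and 1 was lower, beside 27.8%. DESeq2 also called 2 higher and 0 lower, beside 2499 higher and 2388 lower of the 35726 genes that it tested. Those totals also stand beside the later counts of DESeq2 calls. The median log2 fold change of the 10 was 0.24 (0.36 under library totals), from -0.14 to 0.66, while that of all tested genes was 0.01. Library totals without TMM moved the median of all genes to 0.13, and turned 2624 lower and 3071 higher calls into 1840 (6.57%) and 4169 (14.9%).

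Whatever the size of the difference, 5 of the 10 were higher at an adjusted p under 0.01, as were 20.5% of all genes. These were SCARNA5, SCARNA9, SCARNA10, SCARNA13 and SCARNA17, but SCARNA5 and SCARNA17 were not among the 3 that DESeq2 gave, nor among the 3 left without EAF1-mutant replicate 2 or without EAF1-mutant replicate 3. Other libraries left out in turn gave 4 to 6. At an adjusted p under 0.05, SCARNA7 joined them, which made 6 of 10 higher, beside 25.9% of all genes, and 0 lower, beside 25.6%. In 5 of the 10, all EAF1-mutant libraries lay above all wild-type ones, as in 29.2% of all tested genes, and the libraries of the other 5 overlapped.

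**Figure D2:**
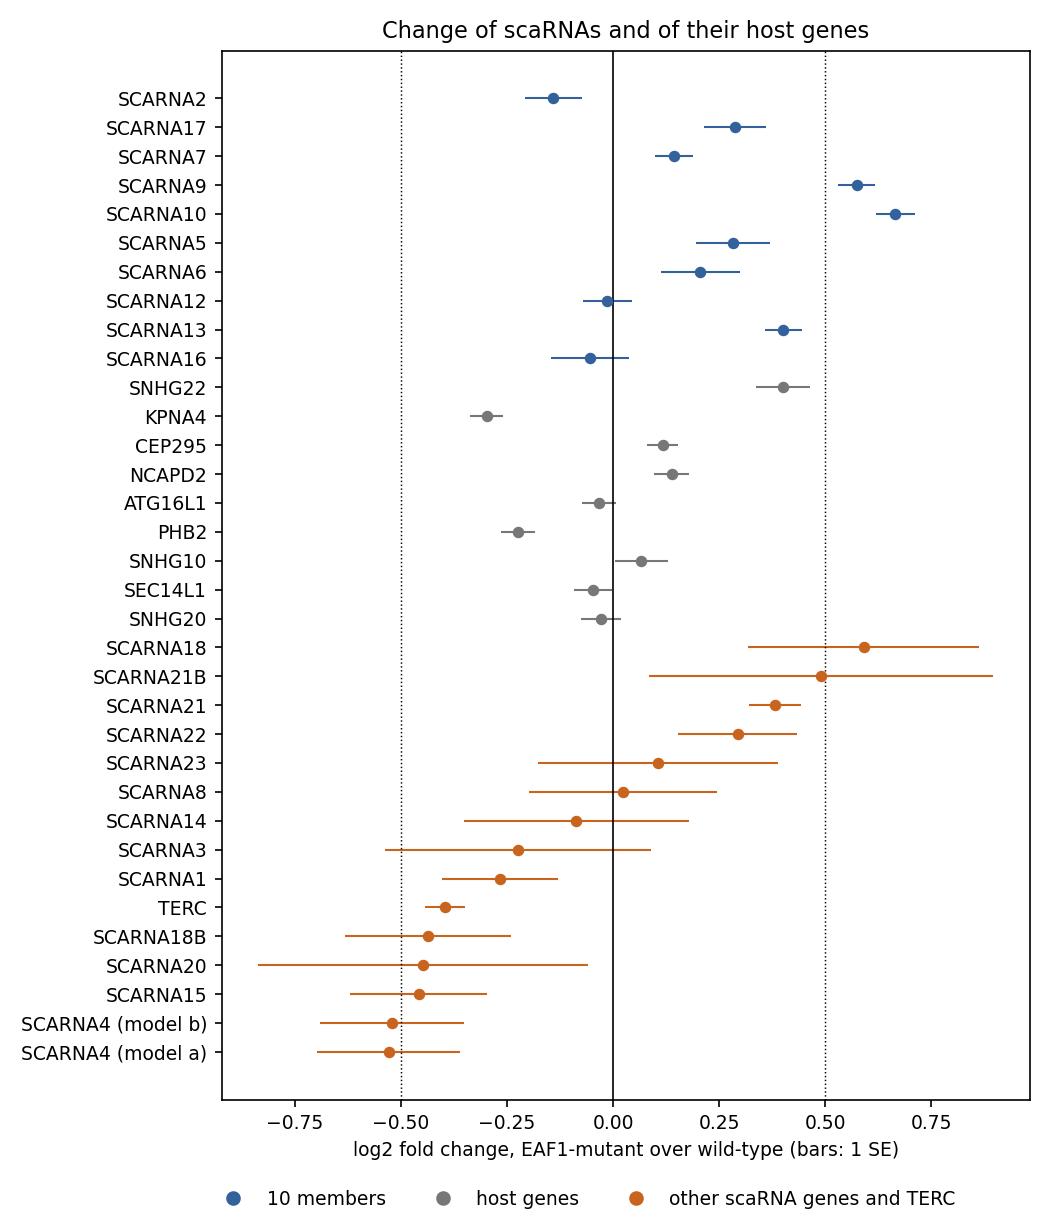
Log2 fold change of EAF1-mutant over wild-type cells from edgeR, with bars of 1 standard error, for the 10 scaRNAs, their host genes, and the other tested scaRNA models with TERC. Dotted lines stand at 0.5 and -0.5. SCARNA9 and SCARNA10 lie beyond them with short bars, while SCARNA18 and both SCARNA4 models, also beyond, have long bars.

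Of the guides listed with their own promoter, SCARNA2 directs methylation of U2 snRNA and lies at chr1:109100193-109100612. Its level was 212, 153 and 181 CPM in wild-type libraries and 159, 169 and 168 CPM in EAF1-mutant ones. The wild-type libraries were far apart, with replicate 1 highest, and their range covered the whole EAF1-mutant group. The log2 fold change was -0.14 (standard error, SE, 0.07 and edgeR-adjusted p = 0.0863), and it was -0.03 without wild-type replicate 1, -0.26 without wild-type replicate 2 and -0.02 under library totals. The adjusted p was 6.40e-05 without wild-type replicate 2 and 0.777 under library totals, the lowest and the highest over all alternatives. A second model 7 bases longer had the same counts in 5 of 6 libraries, so reads on overlapping models appear to be counted for both.

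SCARNA17 had 7.85, 8.43 and 8.46 CPM in wild-type cells and 9.07, 10.5 and 10.6 CPM in EAF1-mutant cells. Every EAF1-mutant library was above the wild-type ones, by a log2 fold change of 0.29 (SE 0.07 and edgeR-adjusted p = 0.00200), too small to be called. The counted model lies within the annotated non-coding gene SNHG22 on the same strand.

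SCARNA7, a box C/D guide for U1 snRNA, lies in an intron of KPNA4, which encodes a nuclear import receptor (importin alpha). It had 71.3, 68.9 and 61.9 CPM in wild-type libraries and 74.8, 73.8 and 74.6 CPM in EAF1-mutant ones. The groups did not overlap, yet the log2 fold change was only 0.14 (SE 0.05 and edgeR-adjusted p = 0.0108). It was 0.07 without wild-type replicate 3, the lowest library, and 0.26 under library totals.

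SCARNA9 lies at chr11:93721513-93721865, in an intron of CEP295, a centriole gene. Its counts were 1777, 1673 and 1661 in wild-type libraries and 2713, 2715 and 3301 in EAF1-mutant libraries. In CPM these were 31.4, 33.1 and 31.0 against 45.6, 48.8 and 47.8. All EAF1-mutant libraries were above all wild-type ones, and the distance between groups was many times the spread within them. The log2 fold change was 0.57 (SE 0.04 and edgeR-adjusted p = 1.27e-10).

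Both box C/D domains of SCARNA9 rose. The first domain had 21.3 ± 1.12 CPM (SD, n = 3) in wild-type and 32.2 ± 1.13 in EAF1-mutant cells, for a log2 fold change of 0.60. The second had 12.4 ± 0.390 and 18.4 ± 1.11 CPM, for a log2 fold change of 0.57. These are parts of 1 RNA and share its reads. The ratio of first to second domain counts had a mean of 1.72 in wild-type and 1.75 in EAF1-mutant cells, with an exact two-sided permutation p = 0.7, where 3 against 3 libraries allow no p under 0.1.

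SCARNA10, a mixed guide for U5 snRNA, lies at chr12:6510222-6510551 in an intron of NCAPD2, a condensin subunit gene. It had 5262, 4551 and 4253 counts in wild-type and 8178, 7574 and 9854 in EAF1-mutant libraries. Scaled, its level was 93.1, 90.0 and 79.5 CPM against 137, 136 and 143 CPM. The lowest EAF1-mutant library was far above the highest wild-type one, and the log2 fold change was 0.66 (SE 0.05 and edgeR-adjusted p = 2.68e-11), or 1.59-fold. An inner model annotated as a long non-coding RNA held 99.9% of these counts, so it is no separate evidence.

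SCARNA12, also a mixed guide, lies on the same chromosome in a short intron of PHB2, which encodes prohibitin 2. Its level was 76.0, 64.5 and 64.5 CPM in wild-type and 61.9, 71.0 and 70.3 in EAF1-mutant libraries. The groups overlapped, and the log2 fold change was -0.01 (SE 0.06 and edgeR-adjusted p = 0.861), with the opposite sign, 0.10, under library totals. The introns that hold SCARNA9, SCARNA10 and SCARNA12 are alike in size, at 541, 495 and 427 bases, and these RNAs end 88, 77 and 88 bases before the 3′ splice site.

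SCARNA5 and SCARNA6 are mixed guides in separate introns of the autophagy gene ATG16L1. SCARNA5 had 17.0, 17.8 and 12.2 CPM in wild-type and 17.7, 19.7 and 19.6 in EAF1-mutant libraries. SCARNA6 had 9.51, 8.29 and 6.48 CPM against 9.19, 9.17 and 9.66 CPM. For both, wild-type replicate 3 was the lowest library and the groups overlapped. The log2 fold change of SCARNA5 was 0.28 (SE 0.09 and edgeR-adjusted p = 0.00943), and without wild-type replicate 3 it was 0.11. That of SCARNA6 was 0.21 (SE 0.09 and edgeR-adjusted p = 0.0710), and it was 0.05 without wild-type replicate 3, 0.33 without wild-type replicate 1 and 0.32 under library totals.

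Of the H/ACA guides, SCARNA13 lies in the non-coding host gene SNHG10 at chr14:95533355-95533629. Its level was 31.8, 30.0 and 29.7 CPM in wild-type and 40.6, 41.0 and 39.2 in EAF1-mutant libraries. The groups were clearly apart, and the log2 fold change of 0.40 (SE 0.04 and edgeR-adjusted p = 5.18e-08) was under the size needed for a call. With library totals it was 0.52 and SCARNA13 was called, which made 3 of 10, beside 14.9% of all genes under that scaling. GLRX5, on the opposite strand, overlaps 127 bases of SCARNA13 and had a log2 fold change of 0.25. The library kit was stranded, but whether the counting used strand is not stated, and the part of GLRX5 reads in the counts of SCARNA13 was not tested.

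SCARNA16, a guide for U1 snRNA, had 4.97, 5.24 and 4.43 CPM in wild-type and 4.82, 4.55 and 4.71 in EAF1-mutant libraries. The EAF1-mutant values lay inside the wild-type range. The log2 fold change was -0.06 (SE 0.09 and edgeR-adjusted p = 0.645), and 0.06 under library totals.

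Over the 10 scaRNAs together, the share of all counts was 0.0530%, 0.0461% and 0.0461% in wild-type libraries and 0.0583%, 0.0608% and 0.0608% in EAF1-mutant ones. SCARNA2 made up 38.2%, 32.0% and 37.8% of these counts in wild-type and 28.4%, 28.9% and 28.6% in EAF1-mutant libraries. Without SCARNA2, the shares were 0.0328%, 0.0314% and 0.0287% against 0.0417%, 0.0432% and 0.0434%. The scaRNA share was thus higher in every EAF1-mutant library, with and without the most abundant guide. The share on the scale of library totals includes the shift of all genes given above. With TMM factors the sum was 554, 480 and 479 CPM in wild-type libraries and 560, 583 and 587 CPM in EAF1-mutant ones. On that scale the highest wild-type library lay just below the lowest EAF1-mutant one.

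Each guide with an annotated gene around it on the same strand was then set against that gene, here called its host, as log2 CPM of the scaRNA minus log2 CPM of the host gene. SCARNA2 has no host other than its longer copy, which left 9 pairs, in which SCARNA5 and SCARNA6 share ATG16L1 and SCARNA17 is listed with its own promoter and not as an intronic guide. In 6 pairs all EAF1-mutant libraries had a higher ratio than all wild-type ones, in 1 pair a lower one, and in 2 pairs they overlapped. The same share over other guides and hosts was not computed, so this count describes these pairs alone. With 3 libraries a group, the smallest p of an exact two-sided permutation test is 0.1, which these 7 pairs reached (0.129 adjusted over 9 pairs with Benjamini-Hochberg), so none could pass a threshold.

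The ratio of SCARNA10 to NCAPD2 was -0.89, -1.07 and -1.28 in wild-type and -0.55, -0.59 and -0.53 in EAF1-mutant libraries, a difference of 0.53. For SCARNA9 against CEP295, the ratio was -2.10, -2.02 and -2.07 against -1.68, -1.57 and -1.57, a difference of 0.46. Both hosts had slightly higher counts in EAF1-mutant cells, with log2 fold changes of 0.14 for NCAPD2 and 0.12 for CEP295 that were not called, so the rise of the guide was larger than that of the host RNA.

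SCARNA7 against KPNA4 gave -0.42, -0.58 and -0.73 in wild-type and -0.15, -0.15 and -0.10 in EAF1-mutant libraries, a difference of 0.44. The log2 fold change of KPNA4 was -0.30 (SE 0.04 and edgeR-adjusted p = 8.86e-07), below the size needed for a call. How the difference divides between guide and host depends on the scaling, since library totals gave -0.18 for KPNA4 and 0.26 for SCARNA7. SCARNA12 against PHB2 differed by 0.21, and PHB2 itself had a log2 fold change of -0.23 while SCARNA12 had -0.01. The annotation holds a PHB2 exon over SCARNA12, and with the counts of SCARNA12 taken off those of PHB2, a choice made after seeing the data, the difference was 0.29. That value holds only if every SCARNA12 read was also counted for PHB2, which was not tested.

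SNHG10 has an annotated exon over SCARNA13 and yet fewer counts than SCARNA13 in every library, so reads on SCARNA13 were not all counted for SNHG10, unlike those of SCARNA2 and its longer copy. SCARNA13 against SNHG10 differed by 0.33, and by 0.30 to 0.36 with each library left out. SCARNA5 against ATG16L1 also differed by 0.33, but by 0.17 without wild-type replicate 3. SCARNA6 against the same host differed by 0.26 with overlapping groups (exact permutation p = 0.2), and by 0.11 without wild-type replicate 3. SCARNA16 against SEC14L1 differed by -0.01, with a sign that depends on the libraries kept. Against SNHG20, an alternative host chosen after seeing the data, SCARNA16 differed by -0.02. SNHG20 has an annotated exon over all 187 bases of SCARNA16, so its counts can include reads of SCARNA16. SNHG20 counts less SCARNA16 counts had a log2 fold change of -0.02, which holds only if every SCARNA16 read was counted for both. None of ATG16L1, SNHG10, SEC14L1 and SNHG20 was called, with log2 fold changes of -0.03, 0.07, -0.05 and -0.03, of which those of ATG16L1, SEC14L1 and SNHG20 turned positive under library totals.

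SCARNA17 was the pair with a lower ratio, -0.28, -0.30 and -0.29 in wild-type and -0.47, -0.38 and -0.37 in EAF1-mutant libraries. SNHG22 had 10.1 ± 0.473 CPM (SD, n = 3) in wild-type and 13.3 ± 0.649 in EAF1-mutant cells, for a log2 fold change of 0.40. SNHG22 has an annotated exon over all 144 bases of the counted SCARNA17 model. SNHG22 counts less SCARNA17 counts were 96, 98 and 102 in wild-type and 208, 175 and 217 in EAF1-mutant libraries. That remainder, looked at after seeing the data, had a log2 fold change of 0.82 (SE 0.12 and edgeR-adjusted p = 4.05e-06), and set against it SCARNA17 differed by -0.53. Both values hold only if every SCARNA17 read was also counted for SNHG22, which was not tested.

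**Figure D3:**
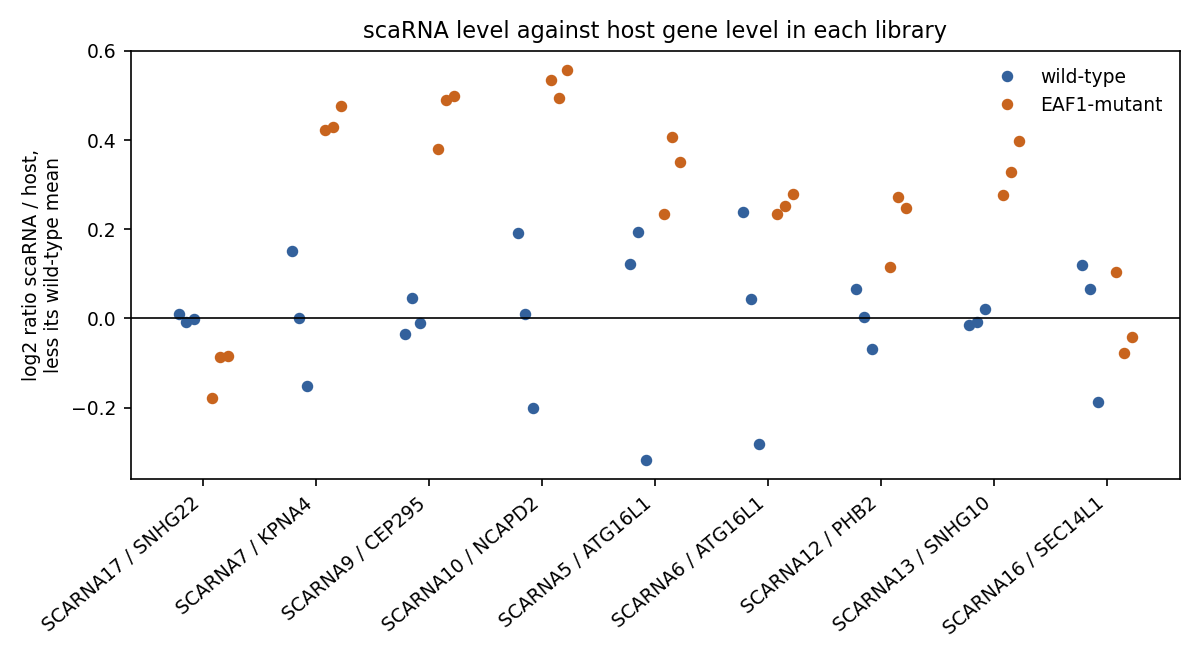
Log2 ratio of each scaRNA to its host gene in each library, less the wild-type mean of that pair, so that the wild-type points centre on 0. EAF1-mutant points stand highest for SCARNA10 with NCAPD2, at a mean of 0.53, below all wild-type points for SCARNA17 with SNHG22, and among them for SCARNA16 with SEC14L1.

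Each scaRNA was also set beside its neighbouring genes, without a test of the neighbours as a group. Among 18 tested protein-coding genes within 2 Mb of SCARNA7 on either side, the host left out, the median log2 fold change was -0.51, and near SCARNA2 the median of 43 genes was -0.39. Under library totals these medians were -0.39 and -0.27. Near SCARNA7, edgeR called 8 lower and 0 higher, and near SCARNA2 it called 12 lower and 2 higher. Over all genes it called 9.36% lower and 11.0% higher. DESeq2 called 9 lower and 0 higher near SCARNA7, and 11 lower and 2 higher near SCARNA2. At an unadjusted p under 0.05, edgeR had 14 lower and 1 higher near SCARNA7, and 30 lower and 6 higher near SCARNA2. The shares of all genes at that threshold were 27.8% lower and 28.5% higher. Relative to these medians SCARNA7 was higher by 0.65 and SCARNA2 by 0.25. Near the 8 other guides the medians lay between 0.02 and 0.13, and under library totals between 0.14 and 0.24. SCARNA9 was above 95.0% of 20 neighbouring genes (median 0.09) and SCARNA10 above 77.0% of 61 (median 0.06), with 14 of these 61 called higher and an upper quartile of 0.62.

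**Figure D4:**
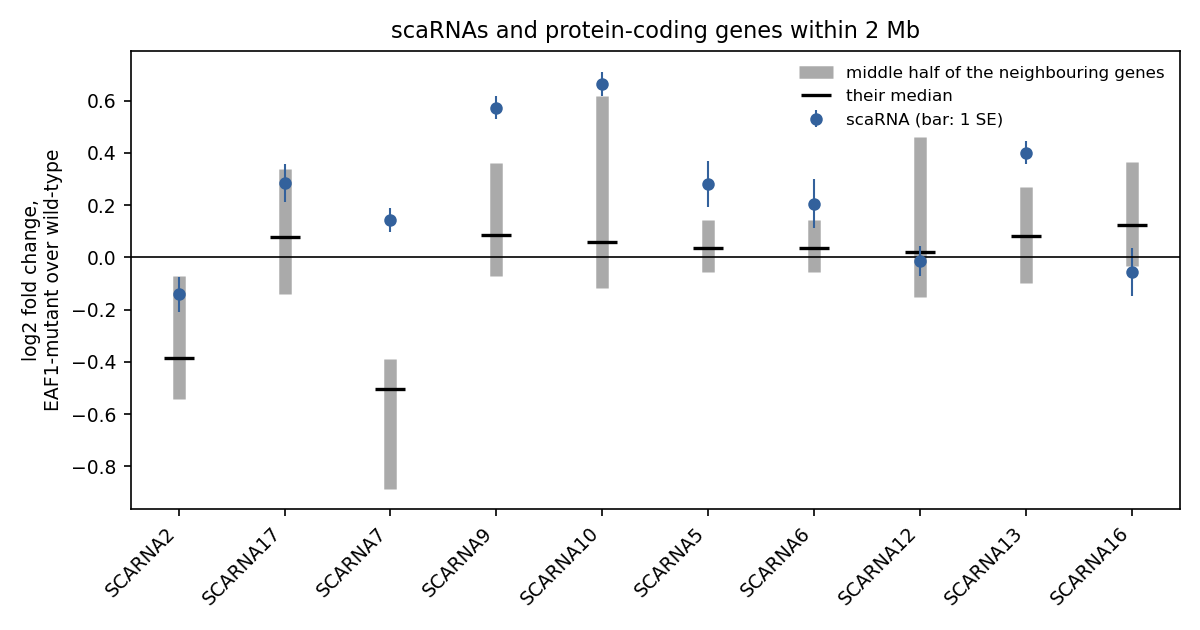
Log2 fold change of each scaRNA with a bar of 1 standard error, beside the median and the middle range (quartiles) of protein-coding genes within 2 Mb. SCARNA7 lies above 94.4% of its neighbours, whose median is -0.51, and SCARNA12 lies near the median of its own.

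The other scaRNA genes gave no call. The annotation has 16 further models under SCARNA symbols or TERC, the RNA of telomerase and itself an H/ACA RNA of Cajal bodies, and 15 of them were tested. 0 were called in either direction by edgeR or by DESeq2, and at an unadjusted p under 0.05 there were 3 higher and 5 lower, beside 28.5% and 27.8% of all genes. The median log2 fold change was -0.22, beside 0.24 for the 10 scaRNAs and 0.01 for all genes, and under library totals it was -0.11, beside 0.36 and 0.13. TERC had 93.0, 79.6 and 84.7 CPM in wild-type and 66.4, 66.0 and 63.2 in EAF1-mutant libraries, which do not overlap, with a log2 fold change of -0.40 (SE 0.05 and edgeR-adjusted p = 1.99e-07). SCARNA21 was higher by 0.38, with 14.1 ± 1.38 CPM (SD, n = 3) in wild-type and 18.4 ± 0.569 in EAF1-mutant cells. SCARNA22, SCARNA15 and SCARNA1, the next by level per kb, had log2 fold changes of 0.29, -0.46 and -0.27. Both SCARNA4 models, near-identical and low in counts, were called lower without wild-type replicate 1 and without EAF1-mutant replicate 3, and SCARNA15 was called without wild-type replicate 3.

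Genes of proteins that bind or assemble scaRNA particles were read by the same rule. Over all tested genes, 9.36% were called lower and 11.0% higher. Of 9 box C/D core and assembly genes, edgeR called 2 lower and 0 higher, as did DESeq2. At an unadjusted p under 0.05, where 27.8% of all genes were lower and 28.5% higher, 6 were lower and 2 higher. Their median was -0.31, or -0.20 under library totals. NOP56, a core protein of box C/D particles, fell from 400 ± 7.16 to 249 ± 2.21 CPM (SD, n = 3), a log2 fold change of -0.69, and the assembly factor ZNHIT6 changed by -0.65, while NOP58 had -0.31. Of 6 box H/ACA genes, edgeR and DESeq2 each called 1 lower and 0 higher. At an unadjusted p under 0.05, beside the same shares of all genes, 27.8% and 28.5%, 4 were lower and 0 higher. Their median was -0.27, or -0.15 under library totals. The called gene was SHQ1, an assembly chaperone of dyskerin, with -0.85, while DKC1, the pseudouridine synthase itself, and NHP2 had -0.45 and -0.20.

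Of 10 genes for maturation and trimming of such RNAs, edgeR and DESeq2 each called 1 lower, which for edgeR was the exonuclease XRN2 with -0.58, and 0 higher. At an unadjusted p under 0.05, where 27.8% of all genes were lower and 28.5% higher, 4 were lower and 4 higher. Their median was -0.05, or 0.07 under library totals, where XRN2 was not called and 3 others were called higher, beside 6.57% lower and 14.9% higher over all genes. In the TMM fit EXOSC10, a catalytic subunit of the nuclear exosome, had 0.40. Of 14 Cajal body genes, edgeR and DESeq2 each called 3 lower and 0 higher, where edgeR called 9.36% of all genes lower and 11.0% higher. At an unadjusted p under 0.05, where 27.8% of all genes were lower and 28.5% higher, 11 were lower and 0 higher. Their median was -0.15, or -0.04 under library totals. The genes called by edgeR were GEMIN2, GEMIN5 and DDX20 of the SMN complex, at -0.99, -0.66 and -0.65, whereas the most abundant, NOLC1 and ICE1, had -0.12 and -0.15. COIL, the Cajal body marker coilin, named after its values were seen, had 0.04, and WRAP53, named in the same way, had -0.16.

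Of 25 listed spliceosomal snRNA genes, U6 genes among them, 24 were tested. Of these, edgeR called 10 lower, 1 higher and 13 not, beside 9.36% lower and 11.0% higher over all genes. Their median log2 fold change was -0.43, or -0.31 under library totals. DESeq2 called 9 lower and 0 higher. At an unadjusted p under 0.05, edgeR had 19 lower and 1 higher, beside 27.8% lower and 28.5% higher over all genes. The gene called higher was RNU6-9, with 0.55, and no gene of the list was called higher without wild-type replicate 1, wild-type replicate 3, EAF1-mutant replicate 2 or EAF1-mutant replicate 3. RNU5A-1, RNU5B-1, RNU11, RNU12 and RNU4ATAC had -1.47, -1.31, -1.22, -1.13 and -1.12. The most abundant, RNU1-1 and RNU1-3, had -0.27 and -0.28 and were not called. Genes of 1 snRNA family share near-identical sequence, so their counts are uncertain, and RNU2-1 did not pass the filter, while RNU2-2P, another U2 gene, named after its values were seen, had 82.4 CPM in wild-type and 72.3 in EAF1-mutant cells, with a log2 fold change of -0.19.

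Among 612 tested snoRNA, scaRNA and snRNA genes, those closest to SCARNA10 over 6 libraries, by Euclidean distance of log2 CPM centred on its mean, were SNORA32 (distance 0.11), SNORD58B (0.20) and RN7SK (0.21), with models that overlap a scaRNA left out. As their selection by likeness to SCARNA10 fixed, they were higher too, with log2 fold changes of 0.73 for SNORA32, 0.60 for SNORD58B and 0.55 for RN7SK. RN7SK, the 7SK RNA that holds the elongation factor P-TEFb inactive, had 13874 ± 371 CPM (SD, n = 3) in wild-type and 20285 ± 305 in EAF1-mutant cells. Closest to SCARNA2, the most abundant guide per kb in wild-type cells, were SCARNA3 (0.13), SNORD34 (0.14) and SNORD32A (0.16), and none of them was called. SCARNA3 had only 13 to 20 counts per library, a counting error of up to 27.7%, so its distance is within counting noise.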

How the data were processed

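The authors aligned reads to GRCh38 with HISAT2, used Rsubread to count them per Ensembl gene, and deposited the unscaled counts. How strand and overlapping genes were handled is not stated. Single-exon genes that lie inside an exon of another gene were compared with it, given at least 100 counts over all libraries. They did not exceed the outer gene in any library in 98.2% of 455 same-strand and 99.0% of 195 opposite-strand pairs. A longer or more abundant outer gene gives the same outcome under any counting rule, so these shares cannot decide how reads were counted. Of 58395 identifiers, 57754 matched GENCODE 44, which gave symbols, positions and lengths. The models that the authors counted on may differ from these, which was not tested. With edgeR 4.0.16 in R 4.3.3, TMM factors, filterByExpr and quasi-likelihood tests were applied, and log2 CPM used a prior count of 2. DESeq2 1.42.0, other scalings and filters, a replicate block and each library left out were alternatives. Permutation tests used scipy 1.17.1. Members and lists were chosen with earlier results of these data known. Named were the 10 scaRNAs and hosts; of other scaRNAs the 5 highest per kb; of each other list the called genes (up to 5 by size) and the 2 most abundant; and the 3 nearest small RNA genes. A ChIP-seq table of histone genes holds no scaRNA and was not used.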

Additional observations from a re-analysis of the deposited data

How the results depend on the processing

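SCARNA9 and SCARNA10 were called higher under every alternative run, with log2 fold changes of 0.54 to 0.60 and 0.58 to 0.70 when each library was left out. The count of called scaRNAs was 2 in those fits, 3 with library totals and 6 at an adjusted p under 0.05 without a fold limit. SCARNA12 had -0.070 to 0.057 with each library left out, 0.0024 with a filter of at least 1 CPM in 3 libraries, and 0.10 with library totals, where SCARNA16 had 0.060; the cause was not tested. For SCARNA16 against SEC14L1 the difference ran from -0.10 to 0.055 as libraries were left out.

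The replicate numbers did not pair the libraries: correlations of same-numbered libraries were -0.00537, -0.0166 and 0.00974. With the replicate as a block, 2 scaRNAs were called, and 2 models of the other scaRNA genes, both SCARNA4, against 0. That list gave 2 calls without a filter on low counts, 0 to 2 with each library left out, and 5 at an adjusted p under 0.05 at any fold. At that looser threshold, which 25.9% of all tested genes passed higher and 25.6% lower, those 5 were 4 lower and 1 higher. It gave 8 box C/D genes (6 lower, 2 higher), 4 box H/ACA genes (all lower), 8 maturation genes (4 lower, 4 higher), 11 Cajal body genes (all lower) and 18 snRNA genes (17 lower, 1 higher). Library totals gave 3 maturation genes, all higher, and XRN2 was not among them. The summed scaRNA share, 0.31 as a log2 ratio of group means, was 0.47 without SCARNA2 and 0.18 with DESeq2 size factors. Whatever the fold, only SCARNA9, SCARNA10 and SCARNA13 passed an adjusted p of 0.01 in every fit; SCARNA5 and SCARNA17 did not. SCARNA2 was lower at that level without wild-type replicate 2 and without a filter on low counts. Counts of 237 to 538 in wild-type libraries limit SCARNA16, SCARNA6 and SCARNA17.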

Other observations

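Other small RNA classes can be set beside the scaRNAs. Of 339 tested snoRNA genes, 12 were called higher and 57 lower in EAF1-mutant cells, and of 254 tested snRNA genes 7 were higher and 36 lower, beside 11.0% higher and 9.36% lower over all tested genes. Their median log2 fold changes were -0.17 and -0.13, and under library totals -0.05 and -0.01. In the annotation SCARNA10 and SCARNA12 count as snoRNAs and SCARNA9 as a long non-coding RNA, so the 22 tested models of the scaRNA class hold neither called guide. Of the 12 snoRNA genes called higher, 3 are SCARNA10 and the models of both SCARNA9 domains.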
